A study of Mus musculus with 4 samples.

Results

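The genes described here serve the unfolded protein response of the endoplasmic reticulum (ER) and the ATF4 response to amino acid shortage. They were taken from a list of 36 gene symbols. A gene was matched when the accession of a non-control probe belonged to its symbol in RefSeq. Probes were found for 34 of the 36 genes, 57 probes in all, out of 18217 named genes and 41174 probes on the array. Dnajb11 and Pdia3 had no probe by name and are not analysed here. All 34 genes passed the filter on dim probes, and 33 were well above background in both channels of all 4 arrays.

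The series measured RNA of microvascular smooth muscle cells from male C57BL6 mice labelled as Rap1a knockout, a genotype that all cells compared share. Cells were transduced with an empty shuttle vector or with a shuttle vector named RapCA, overnight without serum at plating, and then kept for 48 h in 0.5% serum after growth in 10% serum. Each of 4 arrays with 2 colours, all on 1 slide, paired 1 RNA of each kind, with the empty vector in Cy5 and RapCA in Cy3 every time, so an effect of the dye cannot be told apart from one of the vector. The series title calls the comparison knockout against rescue, and the labels do not say what RapCA encodes or which promoter drives it. The labels call the arrays biological replicates but name no separate cultures or animals, so p-values measure the spread between arrays, which may be technical.

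Values are log2 ratios, Cy3 divided by Cy5 and thus RapCA-labelled over vector-labelled, given as mean ± SD over 4 arrays. A gene was called when its adjusted p from limma was under 0.05. Rap1a itself went against the knockout label, since its probe was bright in both channels. It was also lower in the RapCA-labelled channel (-1.06 ± 0.44, limma adjusted p = 0.00204), though the labels do not say what RapCA encodes. Rap1b was higher there (0.80 ± 0.54, limma adjusted p = 0.0134). It is not known here whether the Rap1a probe lies in the deleted part of the gene. Directions therefore follow the dye labels only, and a mistake in the recorded dyes would turn every sign. Replicate 1 stood apart, with correlations across probes of 0.69 to 0.78 against each other array, where the remaining pairs reached 0.93 to 0.98. In the vector-labelled channel 51.3% of its probes were well above background, against 60.1% to 61.9% on the others. Of 8 smooth muscle markers 7 were above background on all arrays in both channels, Des being the exception. Myh11 was dim, with mean log2 signals of 6.62 (RapCA-labelled) and 6.49, beside 6.17 and 6.10 for Des. Acta2 and Tagln were the brightest of the list. The summed signal of the smooth muscle markers was 314107 to 341262 in the RapCA-labelled channel and 143090 to 194020 in the other. Of 6 fibroblast markers 5 were above background in both channels, Lum being the exception, with sums of 335577 to 396693 against 56934 to 88173. Col1a1 was by far the brightest, with mean log2 signals of 18.21 in the RapCA-labelled channel and 15.81 in the other. Of the 5 fibroblast markers tested, 4 were called higher, as were 4 of the 7 smooth muscle markers tested, against 28.9% of all genes. Pdgfra was not called (0.17 ± 0.64, limma adjusted p = 0.560). Among 5 pericyte markers Cspg4 and Pdgfrb were called higher and Kcnj8 lower (-0.40 ± 0.08, limma adjusted p = 0.0116). Rgs5 and Abcc9 were not above background on any array. Of the 5, 2 were above background on all arrays in the RapCA-labelled channel and 3 in the other, with sums of 27089 to 30774 against 9103 to 12784. The like counts were 2 and 1 of 7 endothelial markers, 4 and 3 of 7 leukocyte markers and 0 and 2 of 5 epithelial markers. Their sums were 716 to 725 against 644 to 815 for the endothelial list, 891 to 1054 against 782 to 1123 for the leukocyte list and 370 to 406 against 484 to 508 for the epithelial list. The defining endothelial markers Pecam1 and Cdh5, the leukocyte marker Ptprc and the epithelial marker Epcam were not above background on any array. Kdr was above background on all arrays in both channels and was called lower (-0.75 ± 0.40, limma adjusted p = 0.00705). Cd14, Cd3e and Csf1r were above it on all arrays in both channels and were not called. Tek and Lyz2 were above it on all arrays only in the RapCA-labelled channel, and Krt8 and Krt5 only in the vector-labelled channel. Of these, Tek and Lyz2 were called higher and Krt8 lower, each having passed the filter through that 1 channel. In RNA from whole cultures, fewer cells of a type and less RNA per cell cannot be told apart, and the part of these marker differences in the results below was not tested.

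Proteins that enter the secretory pathway fold in the ER with the help of chaperones, and proteins that fail to fold are sent back to the cytosol for degradation (ER-associated degradation, ERAD). When unfolded proteins build up, the membrane sensors ATF6, IRE1 (Ern1) and PERK (Eif2ak3) respond. ATF6 and spliced XBP1 act on an ER stress element in the promoters of chaperone genes. PERK slows translation and thereby raises ATF4, which also answers amino acid shortage through other kinases and switches on genes of amino acid synthesis and import. Smooth muscle cells secrete collagens and other matrix proteins, which fold in the ER.

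Upstream sequences are shown because most of the chaperone genes were called in 1 direction and the known element can be read in part of them. RefSeq (GRCm38.p6) gave upstream windows for 31 of the 36 genes, 29 of them measured, and the 250 bases before each start were searched on both strands. The ER stress element, ERSE, was searched as CCAAT, any 9 bases and CCACG. It was found in 9 of 17 genes of ER chaperones and ERAD and in 0 of 14 genes of the sensor and ATF4 groups, against 37 of 32851 windows of all genes (0.113%). The windows of all genes include those of the listed genes. The element is known from promoters of chaperone genes, so these shares describe the list and are no support. The 9 genes were Hspa5, Hsp90b1, Dnajc3, Calr, Canx, Pdia6, Creld2, Syvn1 and Derl3. The shorter ERSE-II, searched as ATTGG, any 1 base and CCACG, was found upstream of Herpud1 among the listed genes and in 0.03% of windows. The element TGACGTG (UPRE) was found upstream of Hspa5 and in 1.65% of windows. TGATGNAA, the core of the CARE element that ATF4 binds with C/EBP partners, was found upstream of Asns, Chac1 and Herpud1 and in 3.45% of windows. TGACGTCA (CRE) was found in none of the listed genes and in 1.55% of windows. No 2 matches overlapped in the windows printed here. A match is a description of letters and not a site shown to be bound. Printed below are 3 chaperone genes with the ERSE and a lower signal (Hspa5 at chr2:34771840-34772089, plus strand; Hsp90b1 at chr10:86705445-86705694, minus strand; Creld2 at chr15:88819396-88819645, plus strand). With them are Sdf2l1, whose signal differed most and which has no exact match (chr16:17132384-17132633, minus strand), Canx, which has the element but was not called (chr11:50325674-50325923, minus strand), and Asns with its CARE core (chr6:7693210-7693459, minus strand). All run 5′ to 3′ in the direction of the gene, and capitals mark the matches, which on the opposite strand read as the reverse complement.
Hspa5: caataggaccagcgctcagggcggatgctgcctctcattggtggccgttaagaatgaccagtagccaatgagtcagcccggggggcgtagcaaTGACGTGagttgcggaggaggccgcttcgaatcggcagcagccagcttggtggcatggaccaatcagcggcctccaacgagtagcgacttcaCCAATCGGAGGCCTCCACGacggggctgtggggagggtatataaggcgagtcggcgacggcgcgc
Hsp90b1: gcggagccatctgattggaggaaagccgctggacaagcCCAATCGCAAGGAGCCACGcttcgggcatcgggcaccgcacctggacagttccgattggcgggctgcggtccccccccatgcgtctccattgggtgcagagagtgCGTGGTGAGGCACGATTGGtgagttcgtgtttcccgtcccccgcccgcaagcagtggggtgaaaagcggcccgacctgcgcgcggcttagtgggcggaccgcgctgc
Creld2: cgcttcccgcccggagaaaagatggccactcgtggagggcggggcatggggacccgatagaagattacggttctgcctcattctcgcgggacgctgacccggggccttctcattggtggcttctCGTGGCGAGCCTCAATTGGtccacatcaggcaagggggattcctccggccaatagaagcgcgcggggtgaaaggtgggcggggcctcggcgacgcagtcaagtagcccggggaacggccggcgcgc
Sdf2l1: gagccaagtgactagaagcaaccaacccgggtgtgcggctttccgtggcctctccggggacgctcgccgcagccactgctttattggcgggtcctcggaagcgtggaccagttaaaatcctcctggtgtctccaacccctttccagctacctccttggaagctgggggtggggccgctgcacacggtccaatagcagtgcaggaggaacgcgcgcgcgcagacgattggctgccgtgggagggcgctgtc
Canx: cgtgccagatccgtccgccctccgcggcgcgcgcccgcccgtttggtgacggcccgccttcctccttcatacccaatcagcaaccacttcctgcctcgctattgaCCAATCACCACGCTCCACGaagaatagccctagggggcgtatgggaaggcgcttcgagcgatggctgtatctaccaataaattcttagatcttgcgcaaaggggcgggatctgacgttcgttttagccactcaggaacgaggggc
Asns: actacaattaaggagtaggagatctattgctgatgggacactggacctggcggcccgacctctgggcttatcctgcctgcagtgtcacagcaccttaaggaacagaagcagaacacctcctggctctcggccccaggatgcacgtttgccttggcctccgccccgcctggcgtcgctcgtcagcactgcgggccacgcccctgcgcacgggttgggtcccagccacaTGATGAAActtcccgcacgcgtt

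Of the 15 measured ER genes with an upstream window, 7 of 9 with the ERSE, Derl3 included, were called lower in the RapCA-labelled channel and 4 of 6 without it, where 24.9% of all genes were called lower. The medians of the log2 ratio were -1.47 with the element and -0.91 without it, a difference that was not tested. The groups differ in make-up, since those with the element were 7 chaperones and 2 ERAD genes. Those without it were the chaperones Sdf2l1, Pdia4 and Dnajb9 and the ERAD genes Herpud1, Edem1 and Sel1l. The median of all measured ERAD genes was -0.34, against -1.51 for the chaperones, and Herpud1 holds the ERSE-II. Canx and Calr held the element and were not called. Sdf2l1, Pdia4 and Dnajb9 held no exact match and were lower by more than 2-fold.

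Among 12 ER chaperone genes measured, 10 were lower in the RapCA-labelled channel, each by at least 2-fold, and the other 2 were not called. Their median log2 ratio was -1.51, against 0.02 over all 12388 genes tested. Over all genes tested 24.9% were called lower and 7.47% were called lower by at least 2-fold. Higher calls covered 28.9% of all genes, and calls in either direction 53.9%, against 22 of the 34 genes described here.

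Sdf2l1 and Creld2 stood furthest from 0. Sdf2l1, a small ER protein that works with HSPA5 and its J proteins, had log2 ratios of -4.05, -3.30, -3.50 and -3.34 on replicates 1 to 4. Its signal was 11.7-fold lower in the RapCA-labelled channel (-3.55 ± 0.34, limma adjusted p = 1.51e-05). Creld2, a secreted and ER-resident protein induced by ER stress, had ratios of -2.76, -3.00, -3.11 and -3.09. That is 7.94-fold lower (-2.99 ± 0.16, adjusted p = 9.45e-06). The signal in the vector-labelled channel was higher on every array for both genes, and the channels did not overlap. For Sdf2l1 the normalized log2 signal was 10.48 to 10.93 in the RapCA-labelled channel and 13.89 to 14.98 in the other.

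The HSP70 and HSP90 machinery of the ER was also lower. Hspa5 encodes BiP, the ER member of the HSP70 family, and had log2 ratios of -0.39, -1.57, -1.77 and -2.14 (-1.47 ± 0.76, adjusted p = 0.00331). Hsp90b1, the ER member of the HSP90 family, had -0.17, -1.48, -1.77 and -2.44 (-1.47 ± 0.95, adjusted p = 0.00801). In both genes replicate 1 was nearest to 0, and the direction was the same on all arrays. For Hspa5 the gap between replicate 1 and the others lay mainly in the vector-labelled channel: the normalized log2 signal there was 15.39 on replicate 1 and 16.51 to 16.66 on the others, while in the RapCA-labelled channel it lay between 14.5 and 15 on all 4. Without replicate 1 the means were -1.83 for Hspa5 and -1.90 for Hsp90b1. Hyou1, which exchanges nucleotides on HSPA5, varied far less, with -1.76, -1.57, -1.56 and -1.68 (-1.64 ± 0.10, adjusted p = 4.09e-05).

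The J proteins, which hand unfolded clients to HSPA5, were lower by about the same amount. Dnajb9 had log2 ratios of -1.05, -1.75, -1.74 and -2.22 (-1.69 ± 0.48, adjusted p = 0.000357). Dnajc3 had -0.98, -1.66, -1.73 and -2.11 (-1.62 ± 0.47, adjusted p = 0.000393). Replicate 1 was again the array nearest to 0 and replicate 4 the furthest in both genes, as in Hspa5, Hsp90b1 and Pdia6. Every further probe of these J proteins was also called lower, 2 for Dnajb9 and 3 for Dnajc3, with means from -1.88 to -1.09.

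Among the disulfide isomerases, which form and rearrange disulfide bonds, Pdia4 had log2 ratios of -1.19, -1.26, -1.20 and -1.45 (-1.27 ± 0.12, adjusted p = 0.000103). Pdia6 had -0.57, -1.71, -1.85 and -2.11 (-1.56 ± 0.68, adjusted p = 0.00169). Manf, a secreted ER stress protein with trophic activity, had -1.12, -1.23, -1.52 and -1.26 (-1.28 ± 0.17, adjusted p = 0.000131). The spread over arrays differed between genes of similar mean: the SD was 0.17 or less for Hyou1, Pdia4 and Manf and at least 0.68 for Hspa5, Hsp90b1 and Pdia6.

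The lectin chaperones were the exceptions, though for Calr this depended on the processing. Calr and Canx encode calreticulin and calnexin, which hold newly made glycoproteins. Calr had log2 ratios of 0.11, -0.24, -0.36 and -0.14 (-0.16 ± 0.20, adjusted p = 0.280), and the 95% interval from the fit was -0.42 to 0.11. The same probe was called lower with median centring (-0.78, adjusted p = 0.0396), without replicate 1 (-0.25, adjusted p = 0.0271) and with array weights (-0.29, adjusted p = 0.00140). Of all genes 20%, 34% and 37.3% were then called lower. A second Calr probe was just called lower (-0.31 ± 0.17, adjusted p = 0.0491). Canx had 1.13, 0.51, 0.63 and -0.25 (0.51 ± 0.57, adjusted p = 0.0796), with replicates 1 and 4 on opposite sides of 0. Without replicate 4 it was called higher (0.76, adjusted p = 0.0137). Its other 2 probes had means of -0.42 and -0.22 and were not called either, so its direction is not settled by these probes.

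**Figure D1:**
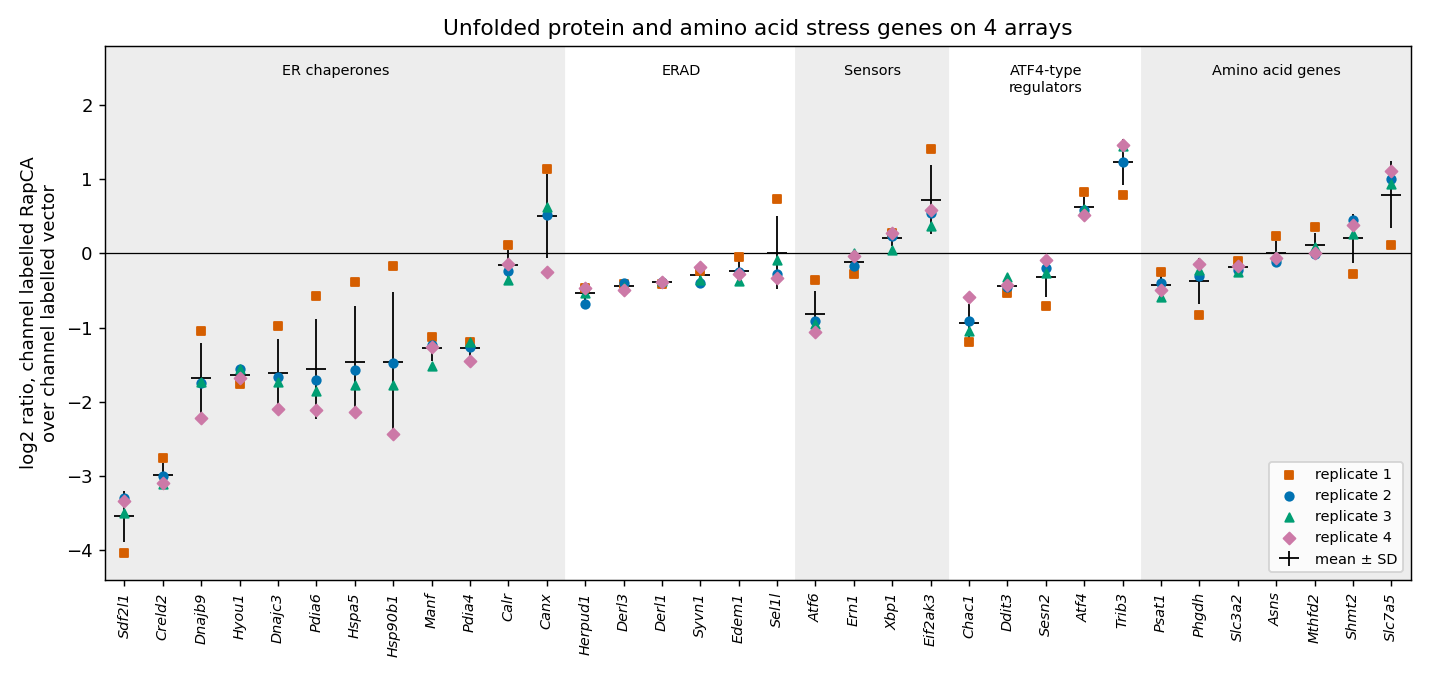
Log2 ratio, RapCA-labelled over vector-labelled (vertical axis), for the brightest probe of each of the 34 genes measured, grouped by role, with 1 symbol for each of 4 arrays and a bar for the mean ± SD. The 10 called chaperone genes lie below 0 on all arrays, Sdf2l1 and Creld2 lowest, while the ATF4-type genes lie on both sides of 0.

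ERAD genes differed less than the chaperones. Of 6 measured, 4 were called lower in the RapCA-labelled channel, 2 were not called, and no gene reached 2-fold, with a median log2 ratio of -0.34. Derl3 is among the 4 and entered the test through 1 channel only. With both channels required above background on all arrays, 2 ERAD genes and 12 of 17 ER genes were called lower, against 25.1% of all genes. Herpud1, an ER membrane protein that recruits the ERAD ligase complex, had ratios of -0.46, -0.68, -0.54 and -0.46 (-0.54 ± 0.10, adjusted p = 0.00366). It was lower on every array. Syvn1 encodes the ubiquitin ligase HRD1 of ERAD and stood at -0.29 ± 0.10 (adjusted p = 0.0409), with a second probe called in the same direction at -0.48 ± 0.31. Its call was lost under 7 of 15 alternatives, with adjusted p up to 0.228. Without replicate 2 or without replicate 3, Herpud1 was the 1 ERAD gene still called lower, where 17.5% and 17% of all genes were. Without replicate 1 all 6, Derl3 included, were called lower, where 34% of all genes were.

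The derlins form part of the channel that carries proteins back to the cytosol, and their probes differed. The brightest of 4 Derl1 probes had ratios of -0.41, -0.38, -0.38 and -0.38 (-0.39 ± 0.01, adjusted p = 0.0115). A second was lower at -0.68 ± 0.19 (adjusted p = 0.00221), another was not called (-0.30 ± 0.21), and the last was higher at 0.71 ± 0.12 (adjusted p = 0.00116). Averaged over its 4 probes Derl1 was not called (-0.16, adjusted p = 0.186). Derl3, a relative of Derl1, was not well above background on any array in the RapCA-labelled channel and was above it on all 4 in the other. With the lowest signal well above background as the bound, its signal was at least 1.34-fold lower in the RapCA-labelled channel. A higher bound would give a smaller fold. The normalized log2 means were 6.16 and 6.60. It passed the filter on dim probes only through the vector-labelled channel, so it had to differ and its call is no support.

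Edem1 and Sel1l were not called by their brightest probes. Edem1, which directs misfolded glycoproteins to degradation, had ratios of -0.05, -0.25, -0.37 and -0.28 (-0.24 ± 0.14, adjusted p = 0.0943). A second Edem1 probe had 1.62, 0.75, 0.74 and 0.78 and was called higher (0.98 ± 0.43, adjusted p = 0.00278). Its remaining probe was not called (0.18 ± 0.12). The direction of Edem1 thus depended on the probe. Sel1l, the partner of HRD1, had 0.73, -0.27, -0.09 and -0.33 (0.01 ± 0.49, adjusted p = 0.966). On replicate 1 it was above 0 and on the others below, and a second Sel1l probe was called lower (-0.47 ± 0.40, adjusted p = 0.0434).

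**Figure D2:**
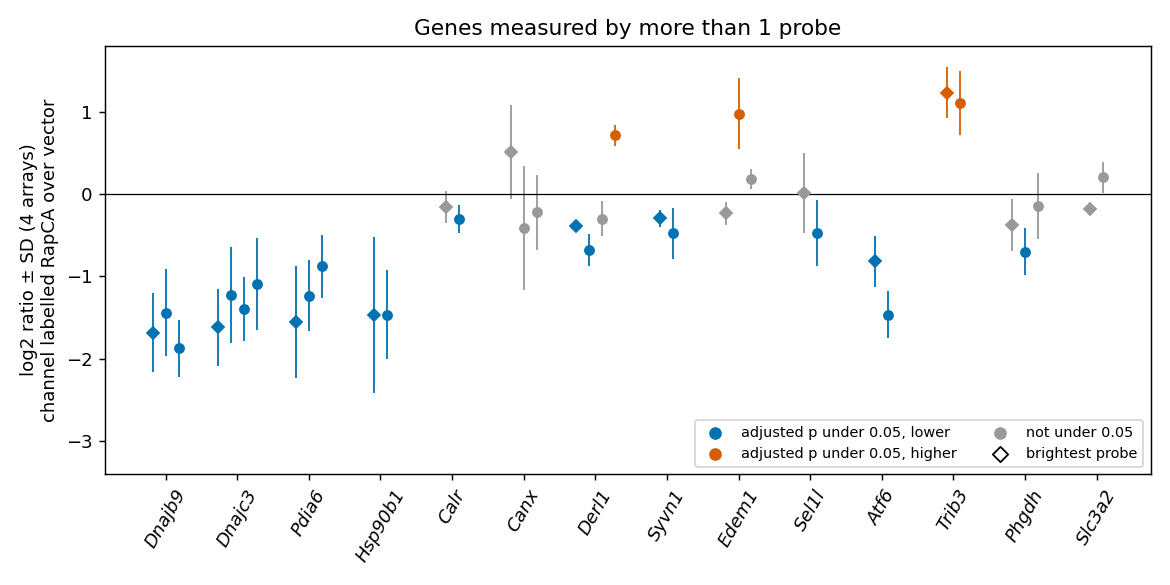
Mean log2 ratio ± SD over 4 arrays of every probe of the 14 genes measured by more than 1 probe, with the brightest probe drawn as a diamond and colour giving the call. All probes of Dnajb9, Dnajc3, Pdia6 and Hsp90b1 were called lower, whereas Derl1 had probes called in opposite directions.

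Of the 14 genes with several probes, all probes had the same call in 9, and Calr, Derl1, Edem1, Phgdh and Sel1l had probes with different calls. The other 20 genes rest on 1 probe each. Over the 57 probes, 32 were called lower, 7 higher and 18 were not called. Over all 23497 probes tested, 5446 were called lower and 6210 higher. Probes of the same gene are not separate evidence.

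Among the 4 sensors, Atf6 was called lower and Eif2ak3 higher, 25% each. That is near the shares over all genes, 24.9% lower and 28.9% higher. Atf6, the sensor that is cut to release a transcription factor, had log2 ratios of -0.36, -0.91, -0.95 and -1.06 (-0.82 ± 0.31, adjusted p = 0.00246). A second Atf6 probe had -1.08, -1.44, -1.61 and -1.73 (-1.47 ± 0.29, adjusted p = 0.000167). Every Atf6 value was below 0, and the size differed between the probes. Eif2ak3, which encodes PERK, had 1.41, 0.54, 0.36 and 0.59 (0.73 ± 0.47, adjusted p = 0.0125), with replicate 1 the highest. With median centring neither gene was called, with log2 ratios of -1.01 for Atf6 (adjusted p = 0.0727) and 0.57 for Eif2ak3 (adjusted p = 0.309). Ern1, which encodes IRE1, was not called (-0.12 ± 0.13, adjusted p = 0.382), and neither was its target Xbp1 (0.21 ± 0.11, adjusted p = 0.125). The 95% interval of Xbp1 was -0.03 to 0.44. The array gives 1 probe for Xbp1 and its splicing was not measured.

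The ATF4-type genes moved in both directions. Of 12 measured, 3 were called lower and 3 higher, against 24.9% and 28.9% of all genes, and their median log2 ratio was -0.09. Trib3 was the 1 member changed by at least 2-fold, upward, as were 9.16% of all genes. It encodes a pseudokinase induced by ATF4 that in turn restrains it, and had ratios of 0.79, 1.23, 1.44 and 1.46 (1.23 ± 0.31, 2.35-fold higher, adjusted p = 0.000409). Its second probe was also higher, at 1.11 ± 0.38 (adjusted p = 0.00113). The channels did not overlap: the normalized log2 signal of the brightest probe was 15.61 to 15.84 in the RapCA-labelled channel and 14.37 to 14.92 in the other.

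Atf4 itself was higher, with ratios of 0.82, 0.58, 0.60 and 0.52 (0.63 ± 0.13, adjusted p = 0.00210). It was above 0 on every array but was not called with median centring (0.21, adjusted p = 0.470). The ATF4 protein is set largely by translation, which an array does not measure. Ddit3 encodes CHOP, the factor linked to cell death under ER stress, and was lower, with -0.53, -0.45, -0.32 and -0.43 (-0.44 ± 0.08, adjusted p = 0.00829). Without replicate 2 it was not called (adjusted p = 0.0649). Chac1, a glutathione-degrading enzyme downstream of ATF4 and CHOP, had -1.20, -0.92, -1.05 and -0.59 (-0.94 ± 0.26, adjusted p = 0.000887). It was the lowest member of the ATF4 group on 4 of 4 arrays. Sesn2, a leucine sensor that restrains mTORC1, was not called (-0.32 ± 0.27, adjusted p = 0.0756). Trib3 and Chac1, both known as targets of ATF4 and CHOP, thus lay on opposite sides of 0 on all 4 arrays.

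**Figure D3:**
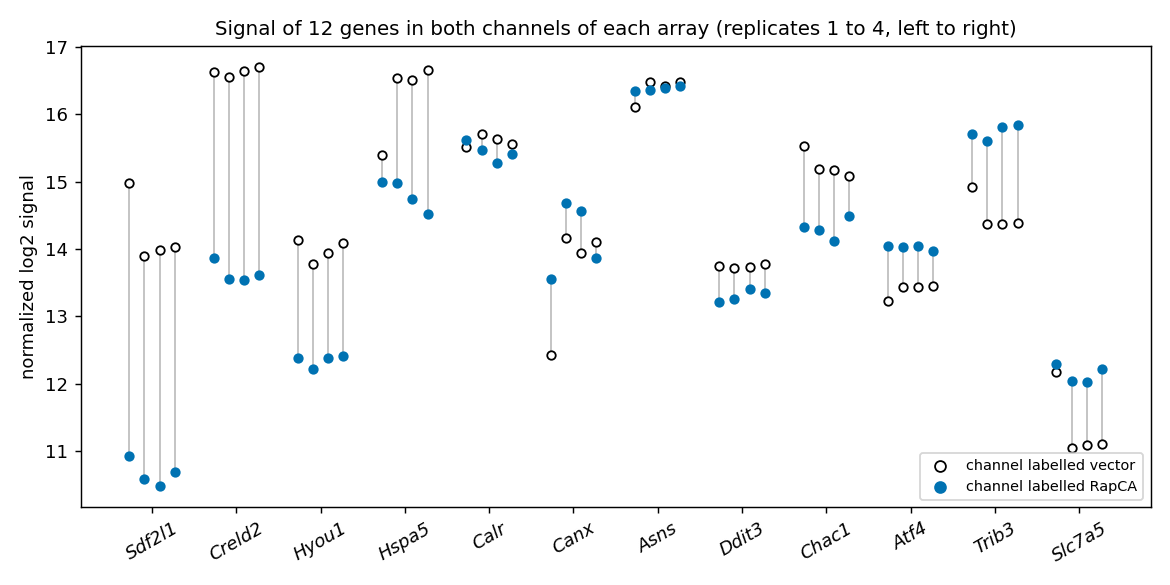
Normalized log2 signal of 12 genes in the vector-labelled channel (open circles) and the RapCA-labelled channel (filled circles), with a line joining both channels of an array and replicates 1 to 4 from left to right. Sdf2l1, Creld2 and Hyou1 are lower in the RapCA-labelled channel on every array, Atf4 and Trib3 are higher, and the circles of Asns lie close together. Signals are not comparable between genes, since probes differ.

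Among the 7 genes of amino acid synthesis and import, 1 was called lower, 1 higher (14.3% each) and 5 were not called. Over all genes 24.9% were called lower and 28.9% higher. Slc7a5, the amino acid exchanger LAT1, had ratios of 0.12, 1.00, 0.94 and 1.12 (0.79 ± 0.46, adjusted p = 0.00807). Replicate 1 was close to 0 and the other arrays were about 1. Its partner chain Slc3a2 was not called by either probe, at -0.18 ± 0.06 (adjusted p = 0.149) and 0.20 ± 0.19 (adjusted p = 0.168). Psat1, of serine synthesis, had -0.25, -0.40, -0.58 and -0.49 (-0.43 ± 0.14, adjusted p = 0.0113). It was not called without replicate 2 (adjusted p = 0.0657) or without replicate 3 (adjusted p = 0.0931). Phgdh, which starts serine synthesis, had -0.83, -0.30, -0.23 and -0.14 (-0.38 ± 0.31, adjusted p = 0.0546) by its brightest probe. A second Phgdh probe was lower at -0.70 ± 0.28 (adjusted p = 0.00388), and the last was not called (-0.14 ± 0.40).

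Asns, the asparagine synthetase and a standard readout of ATF4, had ratios of 0.24, -0.12, -0.03 and -0.06 (0.01 ± 0.16, adjusted p = 0.958). Its 95% interval was -0.24 to 0.26. The mitochondrial folate enzymes Shmt2 and Mthfd2 were not called either, at 0.20 ± 0.33 (adjusted p = 0.270) and 0.11 ± 0.17 (adjusted p = 0.427). A p above the threshold does not show that the channels were alike, and with median centring Asns was called lower (-0.71, adjusted p = 0.0356). So were Phgdh (-1.10, adjusted p = 0.00430), Slc3a2 (-0.84, adjusted p = 0.0158) and Sesn2 (-0.66, adjusted p = 0.0160), where 20% of all genes were.

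Set side by side, the median of the ER chaperone and ERAD genes lay below that of the ATF4-type genes on every array, although single genes overlapped. Canx lay above all ATF4-type genes on replicate 1, and Chac1 lay below all ERAD genes on every array. Of the 18 ER genes measured 14, Derl3 included, were called lower (77.8%) and none higher, against 3 lower and 3 higher of the 12 ATF4-type genes, and against 24.9% lower among all genes. With both channels required above background on all arrays, which leaves Derl3 out, 12 of 17 ER genes were called lower, against 25.1% of all genes. The median log2 ratio was -1.28 in the ER genes and -0.09 in the ATF4-type genes. The median of the ER genes minus that of the ATF4-type genes was -0.26, -1.09, -1.23 and -1.28 on replicates 1 to 4, a mean of -0.96 ± 0.48. Without replicate 1 it was -1.20. No p is given for this difference, because the genes were chosen with results of these arrays known. The small value on replicate 1 came with chaperones nearer to 0 there: their median was -1.01 on replicate 1 and -1.57, -1.73 and -2.11 on replicates 2 to 4. The ERAD medians were -0.32, -0.39, -0.37 and -0.35, and those of the ATF4-type genes -0.18, -0.16, -0.13 and -0.08. Over all 34 genes, replicate 1 was the highest array in 21 and the lowest in 11.

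**Figure D4:**
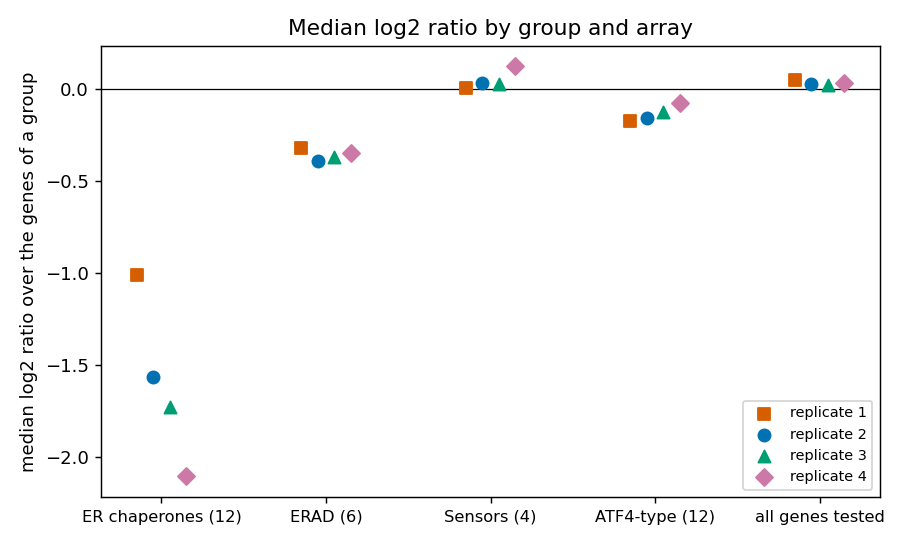
Median log2 ratio over the genes of each group (vertical axis) on each of 4 arrays, beside that of all 12388 genes tested. The chaperone medians run from -1.01 on replicate 1 to -2.11 on replicate 4, and those of ERAD, sensors and ATF4-type genes lie between -0.39 and 0.12.

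Leaving out replicate 1 gave 17 of 18 ER genes called lower, Derl3 included, and 5 lower and 4 higher among the ATF4-type genes. Of all genes 34% were then called lower and 37.1% higher. The calls added among the ATF4-type genes were Phgdh and Slc3a2, lower, and Shmt2, higher. Leaving out replicate 2, or replicate 3, gave 11 of 18 ER genes called lower, Derl3 not among them, where 17.5% and 17% of all genes were called lower. The ATF4-type genes called lower were then 1 without replicate 2 and 2 without replicate 3. The 10 chaperones called lower at 2-fold or more were called lower under each alternative tried.

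The normalization moved the level of the whole group. These genes were bright: 26 of 34 had a mean log2 intensity of at least 12. With each array centred on its median and no loess fit by intensity, all 1298 tested probes with a mean log2 intensity of 14 to 17 had a median ratio of -0.56, against 0.01 with loess. The median of all genes moved from 0.02 to -0.17. With centring the ER median was -1.61 and the ATF4-type median -0.68, and 7 of 12 ATF4-type genes were called lower and 2 higher, where 20% of all genes were called lower and 12.4% higher. The lower median of the ER genes relative to that of the ATF4-type genes was therefore seen with both, while the level of the ATF4-type genes against 0 was not.

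**Figure D5:**
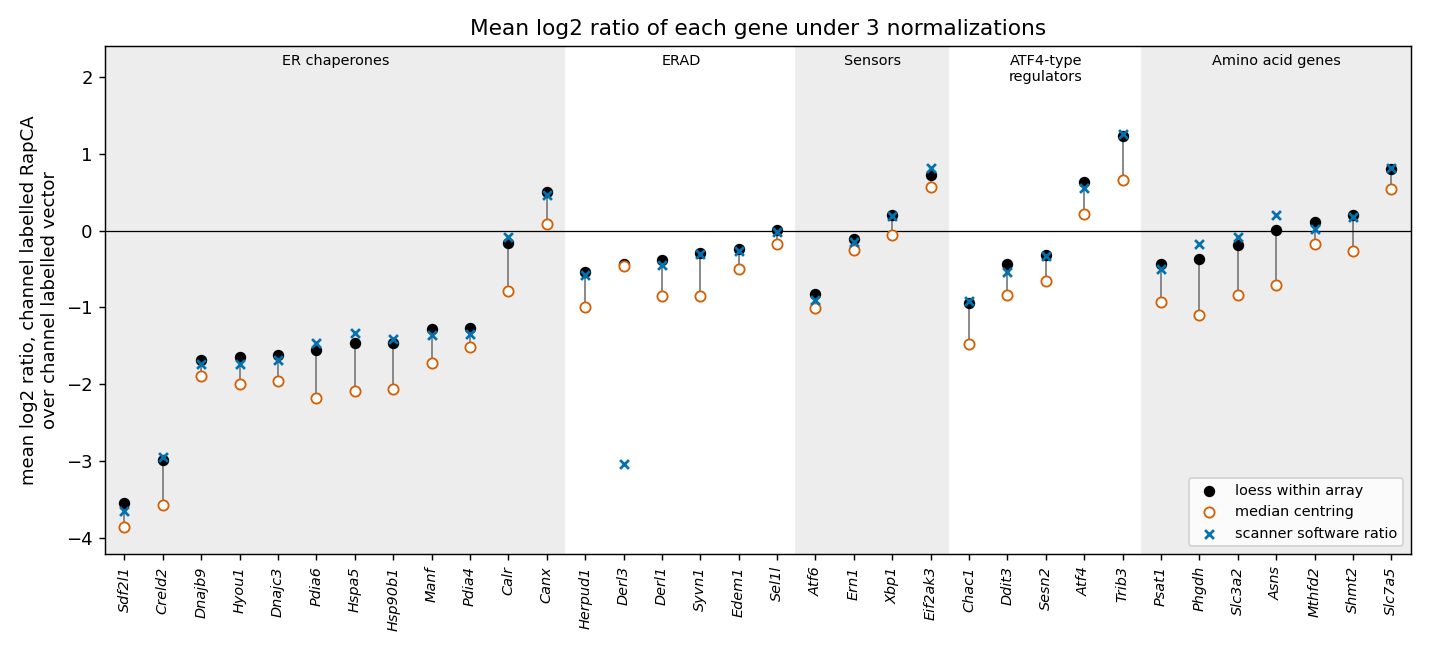
Mean log2 ratio of each of the 34 genes with loess (filled black circles), with median centring (open circles) and from the scanner software's own ratio (crosses). Centring lowers all 34 genes, and Derl3 has a much lower ratio with the scanner software.

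Other genes of the same pathways were read from lists that are not part of the 36. Over all genes 24.9% were called lower and 28.9% higher. Of 21 further ER folding genes, 3 were lower (14.3%) and 7 higher (33.3%), with a median log2 ratio of 0.22. Fkbp14, a collagen-folding prolyl isomerase, was higher at 2.70 ± 0.28 (adjusted p = 2.20e-05), and Ganab, the glucosidase that trims glycans for the lectin chaperones, at 1.5 ± 0.17 (adjusted p = 7.45e-05). Pdia5 was higher at 1.25 ± 0.22, and Txndc11 lower at -0.94 ± 0.11. Of 19 further ERAD and translocation genes, 5 were lower and 5 higher (26.3% each), near the shares over all genes. Sec61a1, of the translocation channel, was lower at -0.70 ± 0.08, as was the ERAD conjugating enzyme Ube2j1 at -0.58 ± 0.11. Faf2 and the ERAD lectin Os9 were higher, at 0.92 ± 0.17 and 0.85 ± 0.15. The difference between these lists and the chaperones among the 36 was not tested.

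Of 13 further sensors and regulators tested, 1 was lower (7.69%) and 5 higher (38.5%), beside 24.9% and 28.9% of all genes. Creb3l1, an ER-bound factor of matrix-secreting cells that is activated like ATF6, was higher at 1.90 ± 0.31 (adjusted p = 7.28e-05). Mbtps1, the protease that cuts ATF6, was higher at 1.38 ± 0.22 (adjusted p = 0.000133), and Creb3 at 0.51 ± 0.09. Eif2ak2, the interferon-induced kinase PKR, was lower at -1.71 ± 0.38 (adjusted p = 0.000167). Of 27 further ATF4 targets, 7 were lower and 7 higher (25.9% each), near the shares over all genes, with a median of -0.04. Atf3, a stress-induced factor, was lower at -1.82 ± 0.05 (adjusted p = 2.57e-05), and the stress cytokine Gdf15 at -1.36 ± 0.33. Shmt1, the cytosolic counterpart of Shmt2, was lower at -1.04 ± 0.31, and the ATF4 relative Atf5 higher at 0.99 ± 0.27. Of 18 tRNA synthetase genes, many of which ATF4 induces, 4 were lower (22.2%) and none higher, with a median of -0.05. Those called were Wars1, Cars1, Vars1 and Rars1, between -0.52 and -0.48.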

How the data were processed

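RNA in 4 pairs was hybridised to 4 Agilent arrays with 2 colours. The file headers name Feature Extraction 10.7.3.1 as the reading software, while the submitters' processing notes name 10.9. The deposited intensity values, unnormalized per the file headers, are median pixel brightness, for the spot and for the background around it. The deposited log10 values are ratios of Cy5 over Cy3 that the software background-subtracted, detrended and dye-normalized, per the file headers. Values in the series table were within 5e-05 of them over 40929 probes with 1 spot. Its scale and direction were read from that match.

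Here background was corrected with normexp (offset 50) and ratios were normalized by loess within arrays, with control spots given no weight. Spots the software marked as outliers (94 to 137 per array) were dropped before spots of the same probe were averaged. The test took probes that 1 channel or both showed well above background on every array (23497 of 41174), and 11656 passed. Ratios were turned to Cy3 over Cy5 on the log2 scale. The test of their mean against 0 used limma (lmFit, eBayes, Benjamini-Hochberg over all probes, at least 3 arrays), and each gene is given by its brightest tested probe. Names came from RefSeq accessions (64.8% of probes), and no probe was placed on a genome. A bound for a dim channel was taken from its lowest signal well above background. The number of arrays limits the precision.

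The genes and lists were chosen with earlier results of these data known, so they are no independent evidence. Named were all members and, of each other list, up to 4 called genes with the smallest p. The limma step was tested on simulated data. Alternatives covered normalization, background, filters, outlier spots, variance, weights, pairing, probes of a gene, fold and each array left out. R 4.3.3, limma 3.58.1, data.table (version 1.17.8), Python 3.11.15, pandas 2.3.3 and matplotlib 3.10.9 were used.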

Additional observations from a re-analysis of the deposited data

Results flagged for a closer look

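Among 35 genes examined (the 34 genes measured and Rap1a), 1 had an array far from the others by Dixon's test, and chance alone sets apart about 1 gene in 20. It was the brightest Derl1 probe, whose log2 ratio was -0.41 on replicate 1 and -0.38 on each of the others.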

How the results depend on the processing

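The 10 chaperone genes called lower at 2-fold or more, with Herpud1, Chac1, Trib3 and Slc7a5, kept their direction and call under 15 alternatives (asking for 2-fold as well is the exception, given below). With median centring 6546 probes were called, and 7 ATF4-type genes and 0 sensors were lower, where 20% of all genes were. The ATF4-type median was -0.68, and Sel1l (-0.18), Xbp1 (-0.064), Asns (-0.71), Shmt2 (-0.27) and Mthfd2 (-0.18) changed sign. With the scanner software's ratios, and with the series table, the ATF4-type median was -0.035 and Sel1l -0.018. With array weights 17692 probes were called, and of all genes 37.3% were lower and 40.3% higher. There 1 ER gene (Canx) was higher and 6 ATF4-type genes were lower. The ATF4-type median was then -0.14, Sel1l -0.16 and Asns -0.058. With the mean of all probes of a gene 1 ER gene (Edem1, 0.31) was higher, where 29.4% of all genes were. The ATF4-type median was 0.0093, and Canx (-0.044), Sel1l (-0.23) and Slc3a2 (0.011) changed sign. Asking for 2-fold as well left 3091 probes, 0 ATF4-type genes lower and 1 higher, and 0 sensors lower. Of all genes 7.47% were then lower and 9.16% higher. Leaving out each array in turn gave 7907 to 15738 probes, with 17% to 34% of all genes lower and 21.4% to 37.1% higher. The ER genes were 11 to 17 lower (Derl3 among the 17 and not among the 11) and 0 to 1 higher. The ATF4-type genes were 1 to 5 lower and 3 to 4 higher. Over the same settings the difference of medians was -1.20 to -0.86. Sel1l ranged from -0.23 (without replicate 1) to 0.12 and Asns from -0.069 (without replicate 1) to 0.050. Without the pairing of channels (no replicate block) 4 ATF4-type genes were lower, where 21.6% of all genes were. Phgdh (adjusted p = 0.0386) was the call added, and no other call of a member changed. The cause of these changes was not tested. Derl3, near background, ranged from -3.03 with the scanner software to -0.42.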

Other observations

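The ERSE, searched after the values of the listed genes had been seen, stood upstream of 35 named genes, 9 of them among the 36. Of the genes outside the list 10 were tested: 2 were called lower, 1 higher and 7 were not called, with a median log2 ratio of -0.17, against 24.9% of all genes called lower. The lower ones were Ero1b, an oxidase that recharges disulfide isomerases (-1.24 ± 0.50, adjusted p = 0.00158), and Alg12, a mannosyltransferase of glycan assembly (-0.78 ± 0.12, adjusted p = 0.000772). Alg12 lies beside Creld2 on the opposite strand, and their upstream windows share 173 bases, and the match counted for both is the same stretch of 19 bases (chr15:88819520-88819538). Adcy3, an adenylyl cyclase, was higher (0.40 ± 0.21, adjusted p = 0.0245). These genes were picked after their values were seen and are given as values only.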
